A study of Mus musculus with 15 samples.

Results

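The 10 genes described here are classical transcriptional targets of p53: Cdkn1a, Mdm2, Bbc3, Bax, Ccng1, Eda2r, Zmat3, Phlda3, Sesn1 and Trp53inp1. They were chosen as known p53 targets, by gene symbol, from the 46679 genes of the deposited tables, and each was followed in all 15 samples. Of the 10 genes, 9 passed the filter on low counts, as did 17481 genes in all, and Bbc3 was too low to be tested.

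RNA was sequenced from 5 groups of C57BL/6 mice with 3 mice per group: naïve brain and end-stage tumors grown from the mouse glioma lines CT2A, GL261, 005 and Mut3. Tumor-bearing mice were 6 to 8 weeks old at implantation in the right hemisphere, which used 100000 cells for CT2A, for GL261 and for 005, and 500000 for Mut3, and the age of the naïve mice was not given in the sources used here. CT2A and GL261 were induced with methylcholanthrene. The study describes CT2A as p53 wild type, GL261 as K-ras and p53 mutant, 005 as driven by H-ras and AKT in a p53+/− background, and Mut3 as made by inactivation of NF1 and p53. All lines carried GFP and firefly luciferase from a retrovirus, 005 cells were selected with puromycin, and the cells of the other lines were sorted for GFP. Each tumor type was 1 line, so the p53 status of a line and its other properties cannot be told apart. The samples were pieces of tissue, so fewer cells of a type and less RNA per cell cannot be told apart either.

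p53 is a transcription factor that is stabilized by DNA damage and oncogenic stress and binds a pair of adjacent half-sites in DNA. Its targets arrest the cell cycle, start apoptosis, repair DNA or adjust metabolism, and Mdm2 closes a feedback loop by marking p53 for degradation.

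RefSeq promoter sequences of GRCm38.p6, from 250 bases before to 50 bases after each start, were at hand for 8 of the 10 genes, with 12 starts in all. Zmat3 (chr3:32334792-32366014, − strand, GENCODE M21) and Trp53inp1 (chr4:11156431-11174379, + strand) had none. Promoters of some of these genes are shown 5′ to 3′, with exact matches to the p53 half-site consensus of 10 bases in capitals. Cdkn1a and Mdm2 are shown as examples of windows with matches, which Bax, Ccng1 and Sesn1 also hold, and Phlda3 and Eda2r because they differed most between tumors.
Cdkn1a, upstream start, chr17:29090729-29091028, + strand: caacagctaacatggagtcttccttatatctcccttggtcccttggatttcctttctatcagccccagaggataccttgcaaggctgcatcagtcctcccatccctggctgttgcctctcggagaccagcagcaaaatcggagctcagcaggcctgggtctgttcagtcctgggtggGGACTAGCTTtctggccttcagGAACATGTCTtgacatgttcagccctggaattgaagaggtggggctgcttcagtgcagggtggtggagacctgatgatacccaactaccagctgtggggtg
Mdm2, chr10:117710709-117711008, − strand: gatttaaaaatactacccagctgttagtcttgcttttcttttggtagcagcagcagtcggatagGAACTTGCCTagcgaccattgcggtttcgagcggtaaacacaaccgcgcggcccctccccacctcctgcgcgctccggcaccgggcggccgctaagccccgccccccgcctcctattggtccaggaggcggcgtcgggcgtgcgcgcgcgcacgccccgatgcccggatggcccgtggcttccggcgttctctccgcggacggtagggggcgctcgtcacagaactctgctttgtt
Phlda3, chr1:135765835-135766134, + strand: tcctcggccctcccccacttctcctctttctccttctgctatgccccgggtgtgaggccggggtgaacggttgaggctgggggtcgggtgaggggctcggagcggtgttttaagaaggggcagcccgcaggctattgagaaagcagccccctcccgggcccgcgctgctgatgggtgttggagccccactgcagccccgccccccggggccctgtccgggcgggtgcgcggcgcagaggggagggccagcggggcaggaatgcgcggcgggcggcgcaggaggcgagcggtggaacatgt
Eda2r, chrX:97377160-97377459, − strand: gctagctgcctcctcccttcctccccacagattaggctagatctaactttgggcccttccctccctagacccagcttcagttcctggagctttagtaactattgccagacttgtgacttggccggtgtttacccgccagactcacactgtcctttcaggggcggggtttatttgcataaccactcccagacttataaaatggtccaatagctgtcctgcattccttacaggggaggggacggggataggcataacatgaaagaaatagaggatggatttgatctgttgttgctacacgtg

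The consensus, which reads the same on both strands, matched in 5 of the 12 promoters, and in 2745 of the 32851 promoters of all genes (8.36%). In Cdkn1a the 2 exact half-sites began at positions −73 and −51 from the start and lay 12 bases apart, which made 1 full site by this rule. Directly after the half-site at −51 lies tgacatgttc, which departs from the consensus only in its first letter and so was not marked. The marks therefore do not show every stretch close to a half-site. A full site of 2 exact half-sites with a spacer of 0 to 13 bases was found in 24 of all promoters (0.0731%). Mdm2 held 1 half-site at −186, Ccng1 held GGGCAAGCCT at −185, Bax held AGGCAAGCTT at −201, and Sesn1 held AAGCTTGTTT at −173 from its downstream start. The windows of Phlda3, Eda2r and Bbc3 held no complete match. That of Phlda3 ends in gaacatgt, which fits the start of the consensus, and the letters that would complete it lie outside the window. A match is a description of these windows, which do not cover sites in introns, farther upstream or across their downstream edge.

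Before the results, 1 library has to be set apart. Replicate 3 of 005 resembled naïve brain in its neuron markers and mitochondrial share, but not in its microglia, macrophage and T cell markers. The summed level of 6 neuron genes (Rbfox3, Snap25, Syt1, Slc17a7, Gad1 and Stmn2) was 3289 CPM (counts scaled to library size, with TMM factors) in that library, against 533 and 163 in the other 005 libraries and 3594 to 6073 in naïve brain. The sum was 195 to 952 in CT2A, 696 to 1657 in GL261 and 42.2 to 128 in Mut3, and no neuron gene was at 0 in any library. Mitochondrial genes took 17.8% of the counts in 005 replicate 3, 14.97% to 24.0% in naïve brain and at most 11.3% in the other libraries. Microglia and macrophage genes summed to 413 CPM in 005 replicate 3, against 132 to 175 CPM in naïve brain. T cell genes summed to 54.5 CPM there, against 3.26 to 28.6 CPM in naïve brain. Total counts were 3105119 to 5161132 in naïve brain and 5380395 to 13130158 in tumors. Without this library Bbc3 also passed the filter on low counts, so that 10 genes were tested, and the calls that use 005 are given with and without it.

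Across the 5 groups, 6 of the 9 tested genes differed by edgeR's quasi-likelihood test at an adjusted p under 0.05, against a background of 52.1% of all tested genes. The 6 were Mdm2, Eda2r, Zmat3, Phlda3, Sesn1 and Trp53inp1. Cdkn1a (adjusted p = 0.111), Bax (adjusted p = 0.186) and Ccng1 (adjusted p = 0.478) did not pass. The share of these targets that passed was near the share of all genes. With 005 replicate 3 left out, Cdkn1a also passed, which made 7 of 10 against a background of 59.4%. The genes did not follow 1 order of the tumors. Mean levels were highest in GL261 for Cdkn1a and Mdm2, in CT2A for Eda2r, in 005 for Ccng1, in Mut3 for Bax, Sesn1 and Trp53inp1, and in naïve brain for Zmat3 and Phlda3.

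**Figure D1:**
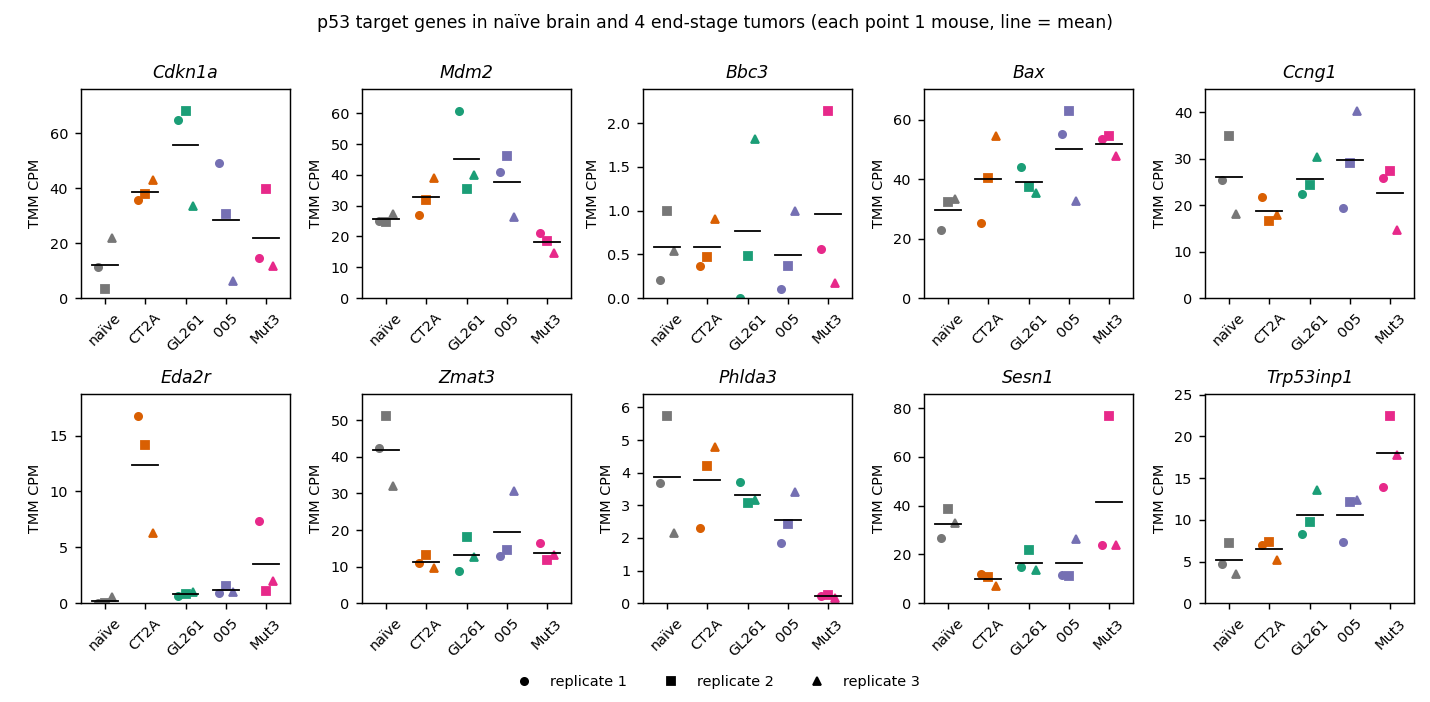
Levels of the 10 p53 target genes in TMM-scaled CPM (y axis, linear, from 0) in naïve brain and the 4 tumor types (x axis). Each point is 1 mouse, the point shape gives the replicate number and the bar is the mean of 3 mice. Eda2r stands out in CT2A, Phlda3 is near 0 in the 3 Mut3 samples, and Zmat3 is highest in naïve brain.

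Cdkn1a encodes p21, the cyclin-dependent kinase inhibitor through which p53 halts the cell cycle. In naïve brain it measured 11.4, 3.24 and 21.9 CPM, in CT2A 35.5, 37.7 and 42.9 CPM, and in GL261 64.9, 68.0 and 33.6 CPM. In 005 it measured 49.0, 30.4 and 6.12 CPM and in Mut3 14.7, 39.6 and 11.6 CPM. Every CT2A and GL261 sample lay above every naïve sample, while the ranges of 005 and Mut3 overlapped that of naïve brain. The lowest 005 value came from replicate 3. Cdkn1a rose in GL261 against naïve brain by 2.19 on the log2 scale (SE 0.72, edgeR adjusted p = 0.0416). This call was lost when any 1 GL261 sample, naïve replicate 1 or 2, or CT2A replicate 3 was left out, with adjusted p up to 0.110. In CT2A the log2 difference was 1.67 (SE 0.71, adjusted p = 0.0722), and without 005 replicate 3 it was 1.64 and passed (adjusted p = 0.0290). It also passed by DESeq2 (adjusted p = 0.0374), and by edgeR without naïve replicate 3 or with no filter on low counts (adjusted p = 0.0378 in each). With only the compared samples fitted, edgeR gave an adjusted p of 0.0281, and leaving out 1 sample gave values up to 0.158. No pair of tumor types passed the edgeR test for Cdkn1a (adjusted p from 0.192 to 0.734), and CT2A, the p53 wild type line, differed from the mean of the other 3 tumor types by 0.25 (SE 0.55, adjusted p = 0.825), or 0.11 (adjusted p = 0.917) without 005 replicate 3. In 005 the difference from naïve brain was 1.23 (adjusted p = 0.238), and 1.64 (adjusted p = 0.0450) without replicate 3.

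Ccng1, a cyclin G gene induced by p53, did not pass edgeR in any comparison with all libraries. By limma on log2(TPM + 0.1) it passed in CT2A against naïve brain (−1.28, adjusted p = 0.0433). On that scale the median of all genes in this comparison shifted by −0.889. Its lowest sample had 14.6 CPM, in Mut3, and its highest 40.2 CPM, in 005 replicate 3, and the highest group mean was 1.58 times the lowest. The ranges of CT2A and GL261 did not overlap, with 16.6 to 21.7 CPM in CT2A and 22.4 to 30.3 CPM in GL261, but the log2 difference of −0.46 (SE 0.35) had an adjusted p of 0.440.

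Mdm2 encodes the ubiquitin ligase that degrades p53 and is itself induced by it. It measured 24.9, 24.7 and 27.3 CPM in naïve brain, 27.1, 31.98 and 39.0 in CT2A, 60.7, 35.4 and 39.8 in GL261, 40.9, 46.2 and 26.3 in 005, and 21.3, 18.6 and 14.8 in Mut3. The 3 Mut3 samples were the lowest of all 15. Mdm2 was higher in GL261 than in Mut3 by 1.31 on the log2 scale (SE 0.30, edgeR adjusted p = 0.0104) and higher in 005 than in Mut3 by 1.05 (SE 0.30, adjusted p = 0.0240). Without 005 replicate 3 the latter was 1.20 (adjusted p = 0.0122), but it was lost when 005 replicate 1 or 2, or Mut3 replicate 2 or 3, was left out (adjusted p from 0.0548 to 0.0783). CT2A lay above Mut3 in every sample (0.84, SE 0.30, adjusted p = 0.0759). Against naïve brain Mdm2 did not pass edgeR in any tumor type with all libraries. GL261 came nearest, with 0.82 (SE 0.30, adjusted p = 0.0593), and it passed without 005 replicate 3 (0.74, adjusted p = 0.0469), without Mut3 replicate 1 or 3 (adjusted p = 0.0462 and 0.0463) and by DESeq2 (adjusted p = 0.0402). In 005 the difference was 0.56 (adjusted p = 0.207), or 0.70 (adjusted p = 0.0762) without replicate 3, and in Mut3 all samples lay below naïve brain (−0.49, SE 0.30, adjusted p = 0.205). In Mut3 Mdm2 passed as lower by limma on log2(TPM + 1) (−0.84, adjusted p = 0.00519) and log2(TPM + 0.1) (−1.25, adjusted p = 0.00353). On these scales the median of all genes in this comparison shifted by −0.621 and −0.742.

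The apoptosis genes Bax and Bbc3 showed no edgeR call with all libraries. Bax, which permeabilizes the outer mitochondrial membrane, measured 22.9, 32.4 and 33.3 CPM in naïve brain, 25.2, 40.2 and 54.5 in CT2A, 43.9, 37.3 and 35.3 in GL261, 55.1, 62.9 and 32.7 in 005, and 53.4, 54.6 and 47.7 in Mut3. All GL261 and Mut3 samples lay above naïve brain. The largest log2 difference was in Mut3, with 0.82 (SE 0.32, adjusted p = 0.0556). Without 005 replicate 3, whose Bax level was inside the naïve range, Bax passed in Mut3 (0.80, adjusted p = 0.0339) and in 005 (0.93, adjusted p = 0.0296). In Mut3 Bax also passed by DESeq2 (0.84, adjusted p = 0.0417). Bbc3 encodes Puma, a BH3-only protein that frees Bax. It was at 0 to 2.14 CPM in the 15 samples, and its groups overlapped in every comparison. Means were 0.487 CPM in 005 and 0.958 ± 1.04 CPM (SD, n = 3) in Mut3. A count of 3 is worth 0.214 to 0.811 CPM in these libraries, so Bbc3 rested on few counts in most samples. Its highest counts were 16.7 in Mut3 replicate 2, 15.3 in GL261 replicate 3 and 13.6 in 005 replicate 3. With all libraries, differences in Bbc3 were not tested by edgeR.

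Eda2r, a receptor of the tumor necrosis factor family that binds ectodysplasin A2, was highest in the p53 wild type line. It measured 16.7, 14.1 and 6.33 CPM in CT2A. The GL261 samples had 0.622, 0.808 and 0.970 CPM, the 005 samples 0.927, 1.57 and 0.997 CPM, and the Mut3 samples 7.38, 1.13 and 2.02 CPM. In naïve brain it was at 0, 0 and 0.541 CPM, which is 2 counts over the 3 libraries. CT2A lay above all GL261, 005 and naïve samples, and only Mut3 replicate 1 reached into its range.

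Eda2r was higher in CT2A than in GL261 by 3.91 on the log2 scale (SE 0.81, edgeR adjusted p = 0.00904) and higher than in 005 by 3.40 (SE 0.77, adjusted p = 0.0258). Without 005 replicate 3 these were 3.94 (adjusted p = 0.00517) and 3.33 (adjusted p = 0.0468). The call against 005 was lost without CT2A replicate 1 or 2 or 005 replicate 1 (adjusted p up to 0.0863), and the one against GL261 without GL261 replicate 1 (adjusted p = 0.0512). Against Mut3 the difference was 1.81 (SE 0.71, adjusted p = 0.107). CT2A exceeded the mean of GL261, 005 and Mut3 by 3.04 (SE 0.53, adjusted p = 0.00225), although its range overlapped that of the 9 samples, and by 3.02 (adjusted p = 0.00231) without 005 replicate 3.

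Against naïve brain Eda2r rose in CT2A (edgeR adjusted p = 8.77e-04) and in Mut3 (adjusted p = 0.00461). Since naïve brain held 2 counts, the size is given as a ratio of pooled CPM with its counting interval, which covers counting error only. The ratio was 78.1 (95% interval 21.4 to 648) in CT2A and 21.9 (5.90 to 183) in Mut3. In GL261 it was 5.24 (1.23 to 47.0) and in 005 7.09 (1.83 to 60.8), and neither passed edgeR (adjusted p = 0.150 and 0.104, the latter 0.0752 without 005 replicate 3). The call in Mut3 was lost by limma on log2(TPM + 1) (adjusted p = 0.209) and on log2(TPM + 0.1) (adjusted p = 0.0556).

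Phlda3 encodes a pleckstrin homology protein that competes with AKT for membrane lipids and so holds AKT back. It measured 3.67, 5.73 and 2.16 CPM in naïve brain, 2.32, 4.19 and 4.78 in CT2A, 3.73, 3.07 and 3.15 in GL261, and 1.85, 2.41 and 3.42 in 005. In Mut3 it was at 0.224, 0.252 and 0.176 CPM, which is 6 counts over the 3 libraries. The other 4 groups overlapped one another, and all 12 of their samples lay above all Mut3 samples.

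Phlda3 fell in Mut3 against naïve brain by 4.07 on the log2 scale (SE 0.59, edgeR adjusted p = 3.76e-04). It was higher than in Mut3 by 4.03 in CT2A (SE 0.58, adjusted p = 5.57e-04), by 3.85 in GL261 (SE 0.58, adjusted p = 0.00110) and by 3.49 in 005 (SE 0.58, adjusted p = 0.00181). As ratios of pooled CPM over Mut3, with counting intervals, these came to 18.3 (7.83 to 52.3) for naïve brain, 17.5 (7.70 to 49.0) for CT2A, 15.4 (6.70 to 43.6) for GL261 and 12.6 (5.58 to 35.4) for 005. All 4 calls held when any 1 library was left out, and without 005 replicate 3 the difference of 005 from Mut3 was 3.16 (adjusted p = 0.00352). By limma on log2(TPM + 1) the call of 005 against Mut3 was lost (1.05, adjusted p = 0.0565). The difference of CT2A from the mean of the other tumor types, 1.59 (SE 0.38, adjusted p = 0.0177), was 1.69 (adjusted p = 0.0126) without 005 replicate 3 and includes the low Mut3 value: CT2A differed from GL261 by 0.18 (adjusted p = 0.848) and from 005 by 0.54 (adjusted p = 0.484). It was lost without CT2A replicate 2 or 3 (adjusted p = 0.0829 and 0.131), with no filter on low counts (adjusted p = 0.0554) and by limma at pseudocounts of 1 and 0.1 (adjusted p = 0.464 and 0.143).

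Zmat3, a zinc finger protein that binds RNA and restrains tumor growth downstream of p53, was lower in tumors. It measured 42.4, 51.1 and 31.9 CPM in naïve brain. The CT2A samples had 10.99, 13.2 and 9.56 CPM, the GL261 samples 8.70, 18.1 and 12.7 CPM, the Mut3 samples 16.4, 11.7 and 13.105 CPM, and the 005 samples 12.9, 14.5 and 30.7 CPM. All tumor samples lay below all naïve samples, and the highest tumor sample was 005 replicate 3. On the log2 scale Zmat3 fell by 1.89 in CT2A against naïve brain (SE 0.39, edgeR adjusted p = 0.00263), by 1.66 in GL261 (SE 0.38, adjusted p = 0.00826) and by 1.60 in Mut3 (SE 0.38, adjusted p = 0.00464). In 005 the difference was −1.11 (SE 0.38, adjusted p = 0.0661), and −1.68 (adjusted p = 0.00280) without replicate 3. With all libraries it passed in 005 by DESeq2 (adjusted p = 0.0173) and by limma at pseudocounts of 1 and 0.1 (adjusted p = 0.0196 and 0.0325). No pair of tumor types passed (adjusted p from 0.213 to 0.936). In GL261 the call was lost without replicate 1 (−1.31, adjusted p = 0.0572).

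Sesn1, a sestrin that limits oxidative stress and mTORC1 activity, fell in CT2A. It measured 26.7, 38.6 and 32.7 CPM in naïve brain and 12.1, 10.9 and 7.10 in CT2A. The GL261 samples had 14.9, 21.7 and 13.5 CPM, the 005 samples 11.7, 10.99 and 26.5 CPM, and the Mut3 samples 23.9, 76.6 and 23.8 CPM. CT2A, GL261 and 005 lay below naïve brain in every sample, and Mut3 replicate 2 was the highest sample of all. In CT2A Sesn1 fell against naïve brain by 1.70 on the log2 scale (SE 0.49, edgeR adjusted p = 0.0135), a call lost without naïve replicate 2 or CT2A replicate 3 (adjusted p = 0.0604 and 0.0618). CT2A was also below Mut3, by −2.05 (SE 0.49, adjusted p = 0.0131). Without Mut3 replicate 2 this was −1.255 and was lost (adjusted p = 0.0813), as it was without CT2A replicate 2 or 3 (adjusted p = 0.0506 and 0.0650) and by limma at pseudocounts of 1 and 0.1 (adjusted p = 0.0935 and 0.0505). In 005 against Mut3 Sesn1 differed by −1.33 (adjusted p = 0.0604), and by −1.91 (adjusted p = 0.0169) without 005 replicate 3. In GL261 and 005 the differences from naïve brain were −0.97 (adjusted p = 0.142) and −0.99 (adjusted p = 0.168), the latter −1.59 (adjusted p = 0.0197) without replicate 3. With all libraries both passed by limma at pseudocounts of 1 (adjusted p = 0.0239 and 0.0487) and 0.1 (adjusted p = 0.02725 and 0.0494).

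Trp53inp1, a nuclear body protein that promotes p53 phosphorylation and autophagy, was highest in Mut3. It measured 4.69, 7.22 and 3.52 CPM in naïve brain, 6.96, 7.30 and 5.17 in CT2A, 8.29, 9.70 and 13.6 in GL261, 7.31, 12.1 and 12.4 in 005, and 13.9, 22.4 and 17.8 in Mut3. Every Mut3 sample lay above all 12 others, and every CT2A sample lay below all other tumor samples. Trp53inp1 rose in Mut3 against naïve brain by 1.80 on the log2 scale (SE 0.38, edgeR adjusted p = 0.00230), a call lost by limma at pseudocounts of 1 and 0.1 (adjusted p = 0.129 and 0.148). All GL261 and 005 samples also lay above all naïve samples. In GL261 the difference was 1.03 (SE 0.38, edgeR adjusted p = 0.0588). It passed there by DESeq2 (adjusted p = 0.0327) and by edgeR without mitochondrial genes (adjusted p = 0.0373). In 005 the difference was 1.04 (adjusted p = 0.0810, and 0.0435 by DESeq2), or 0.84 (adjusted p = 0.119) without replicate 3. It was lower in CT2A than in Mut3 (−1.47, SE 0.37, adjusted p = 0.0164), a call lost without CT2A replicate 2 or 3 or Mut3 replicate 2 or 3 (adjusted p from 0.0534 to 0.0789) and by limma at pseudocounts of 1 and 0.1 (adjusted p = 0.0898 and 0.0854). CT2A stood below the mean of the other tumor types by −0.96 (SE 0.31, adjusted p = 0.0725), or −0.91 (adjusted p = 0.0829) without 005 replicate 3.

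**Figure D2:**
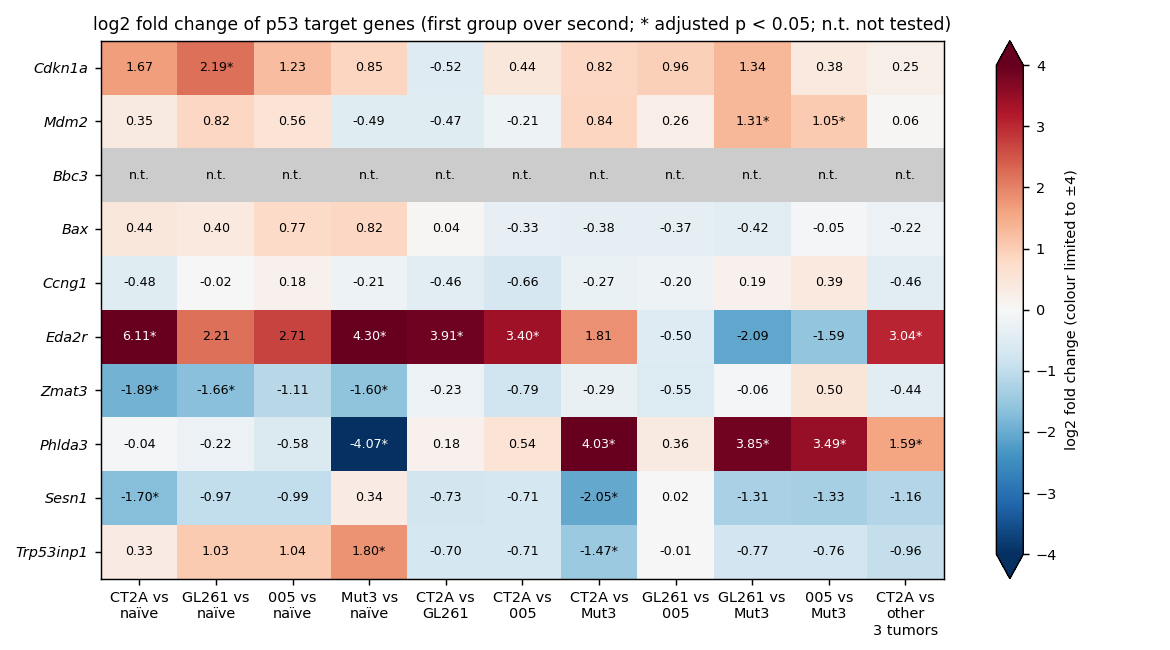
Log2 fold changes of the 10 p53 target genes (rows) in 11 comparisons (columns), first group over second, from the edgeR fit, with an asterisk at an adjusted p under 0.05. The colour scale is capped. The cells beyond its red end are Eda2r in CT2A and in Mut3 against naïve brain and Phlda3 in CT2A against Mut3. The cell beyond its blue end is Phlda3 in Mut3 against naïve brain. The values of Eda2r against naïve brain rest on 2 naïve counts.

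Set side by side, the comparisons with naïve brain share the same 3 control samples. In CT2A 3 of the 9 tested genes passed, against 42% of all tested genes, with Eda2r upward (20.3% of all genes) and Zmat3 and Sesn1 downward (21.7%). In GL261 2 of 9 passed, against 23.6%, with Cdkn1a upward (15.1%) and Zmat3 downward (8.45%). In Mut3 4 of 9 passed, against 40.3%, with Eda2r and Trp53inp1 upward (19.3%) and Zmat3 and Phlda3 downward (21%). In 005 0 of 9 passed the edgeR test, against 12.9%, with 4 at an unadjusted p under 0.05 and 2 by DESeq2 (Zmat3 and Trp53inp1, background 21.2%). DESeq2 also called 4 of 9 in GL261, adding Mdm2 and Trp53inp1, against 32.6% of all genes. In CT2A it called 2 higher and 2 lower, adding Cdkn1a, against 46.6% of all genes. In Mut3 it called 3 higher and 2 lower, adding Bax, against 44.9%. Without 005 replicate 3, 4 of 10 passed in 005 (Cdkn1a and Bax upward, Zmat3 and Sesn1 downward) against 37.9% (18.6% higher and 19.3% lower). Taking CT2A, GL261, 005 and Mut3 in that order, the median log2 fold change of the 9 genes was 0.33, 0.40, 0.56 and 0.34, where the medians of all tested genes were −0.04, −0.08, 0.01 and 0.11.

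Between tumor types, 1 of 9 genes (Eda2r) passed in CT2A against GL261, where 7.96% of all genes did and 4.26% were higher, and 1 of 9 (Eda2r) in CT2A against 005, where 4.16% did and 2.15% were higher (1 of 10 and 4.35% without 005 replicate 3). In CT2A against Mut3 3 of 9 passed, against 13.2%, with Phlda3 higher (6.82%) and Sesn1 and Trp53inp1 lower in CT2A (6.39%). In GL261 against Mut3 and in 005 against Mut3 the same 2 genes, Mdm2 and Phlda3, were lower in Mut3, against 18% and 20.7% of all genes (11.4% and 14.4% lower in Mut3). In 005 against Mut3 Sesn1 also passed without 005 replicate 3, but it was higher in Mut3, and this made 3 of 10 against 16.7%. GL261 and 005 did not differ in any of the 9 genes by edgeR (0 at an unadjusted p under 0.05, and 0 by DESeq2), against 2.63% of all genes (5.9% by DESeq2). This was 0 of 10 without 005 replicate 3, also at an unadjusted p under 0.05, against 5.93%. In CT2A against the mean of the other 3 tumor types, which sets the p53 wild type line against the rest, 2 of 9 passed, Eda2r and Phlda3, both higher in CT2A, against 8.83% (5.5% higher), and 2 of 10 against 10.4% without 005 replicate 3. DESeq2 called 5 of 9 in CT2A against Mut3 (20.1% of all genes), 4 in GL261 against Mut3 (25.4%) and 4 in CT2A against the other tumor types (14.2%). The median over the 9 genes in that comparison was −0.22, and −0.10 over all genes.

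Marker genes of normal brain cells differed between the same groups. All 6 neuron genes were called lower than in naïve brain in CT2A and in Mut3, where 21.7% and 21% of all genes were (medians −3.36 and −5.58 on the log2 scale). In GL261 0 of 6 passed edgeR, where 8.45% of all genes were lower, but all 6 were lower at an unadjusted p under 0.05 and by DESeq2 (median −2.09). In 005 0 of 6 passed, where 1.13% were lower, with 3 at an unadjusted p under 0.05 and 1 by DESeq2 (median −1.81), and all 6 passed without replicate 3, where 19.3% were lower (median −3.70). Zmat3 and Sesn1 were high in naïve brain and in 005 replicate 3, and Cdkn1a and Bax were low there. Sesn1 in Mut3 replicate 2, with 76.6 CPM, went with a neuron sum of 128 CPM. The summed levels of 5 oligodendrocyte genes were 1435 to 3798 CPM in naïve brain, 185 to 1017 in CT2A, 950 to 1402 in GL261, 398 to 4184 in 005 and 301 to 475 in Mut3. Those of 7 microglia and macrophage genes were 132 to 175 CPM in naïve brain, 224 to 336 in CT2A, 446 to 791 in GL261, 413 to 1180 in 005 and 62.8 to 160 in Mut3. The part of these markers in the differences of the p53 targets was not tested.

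**Figure D3:**
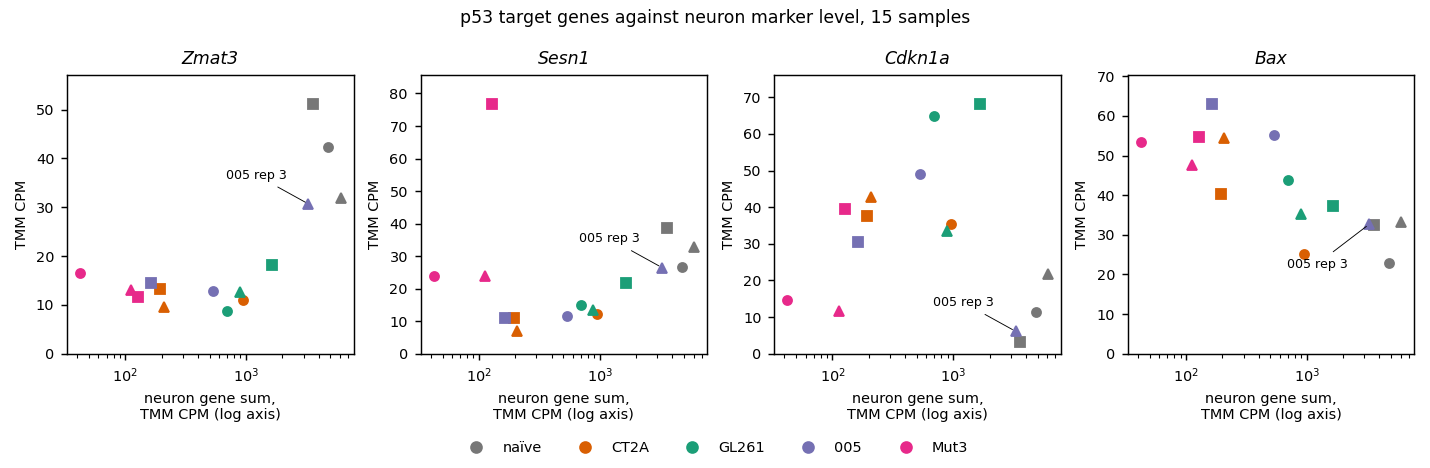
Levels of Zmat3, Sesn1, Cdkn1a and Bax (y axes, TMM-scaled CPM) against the summed level of 6 neuron genes (x axes, TMM-scaled CPM, log axis) in the 15 samples, coloured by group, with point shapes for replicates 1 (circle), 2 (square) and 3 (triangle). Replicate 3 of 005, with a neuron sum of 3289 CPM, lies beside the naïve samples in all 4 panels.

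Among the genes that act on p53, Cdkn2a, which encodes p16 and p19Arf, an inhibitor of Mdm2, was at 0 counts in the 3 naïve libraries. It measured 6.47 to 12.7 CPM in CT2A, 4.85 to 12.02 in GL261, 0.926 to 3.98 in 005 and 4.66 to 9.06 in Mut3. Against the highest value that 3 counts would give in a naïve library, its mean was at least 11.4-fold higher in CT2A, at least 11.6-fold in GL261, at least 2.57-fold in 005 and at least 7.93-fold in Mut3, and it passed edgeR in all 4 (adjusted p from 3.77e-04 to 0.00542). The kinases Atm and Chek1, which signal DNA damage to p53, also rose in all 4. For Atm the log2 differences, in the order CT2A, GL261, 005 and Mut3, were 3.18, 3.26, 2.13 and 2.06 (adjusted p from 0.00286 to 0.0420). Mdm4, the partner of Mdm2 that masks p53, fell in CT2A by 1.19 (SE 0.37, adjusted p = 0.0204) and did not pass in the other 3. In 005 without replicate 3 the differences were 2.28 for Atm (adjusted p = 0.0154) and −1.14 for Mdm4, which then passed (adjusted p = 0.0462), and Cdkn2a and Chek1 still passed (adjusted p = 0.00124 and 0.00343).

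Of the 15 tested genes in the list of p53 and its regulators, 4 were higher and 2 lower in CT2A (26.7% and 13.3%, against 20.3% and 21.7% of all tested genes), and 4 and 1 in GL261 (26.7% and 6.67%, against 15.1% and 8.45%). In Mut3 6 were higher and 1 lower (40% and 6.67%, against 19.3% and 21%). In 005 3 were higher and 1 lower (20% and 6.67%, against 11.8% and 1.13%), and 4 and 2 without replicate 3 (26.7% and 13.3%, against 18.6% and 19.3%). Trp53bp1, which binds p53 and broken DNA, fell by 1.95 in CT2A, by 1.86 in 005 and by 2.89 in Mut3 (adjusted p = 0.0153, 0.0449 and 0.00205), and by 2.70 in 005 without replicate 3 (adjusted p = 0.00259). Hipk2, a kinase that activates p53, rose in Mut3 by 1.38 (SE 0.40, adjusted p = 0.0138) and was lower in CT2A than the mean of the other tumor types by −1.18 (SE 0.34, adjusted p = 0.0455), or −1.21 (adjusted p = 0.0356) without 005 replicate 3. Trp63, a p53 relative, was at 0 counts in all CT2A libraries after the expected counts were rounded, with 0.347 expected counts in replicate 1, and at 0.121 to 2.21 CPM in the other tumor samples.

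Nf1 was read as a check of the labels. Nf1, inactivated in Mut3, was not lower there but rose by 1.05 (SE 0.36, adjusted p = 0.0319), and rose by 1.70 in GL261 and 1.98 in 005 (adjusted p = 0.00592 and 0.00375), the latter 2.17 (adjusted p = 3.89e-04) without 005 replicate 3. Which exons are altered in a line was not given in the sources used here, and gene totals cannot show where a gene was cut or mutated.

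**Figure D4:**
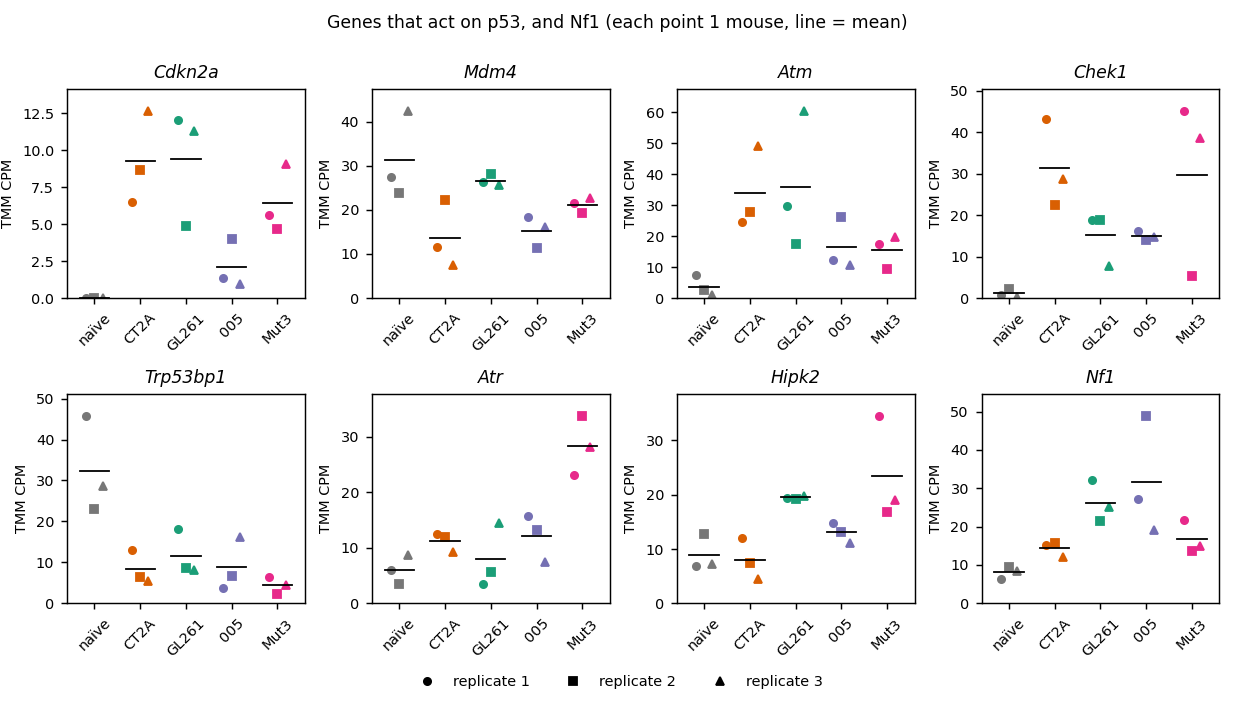
Levels of Cdkn2a, Mdm4, Atm, Chek1, Trp53bp1, Atr, Hipk2 and Nf1 in TMM-scaled CPM (y axis, linear, from 0) in the 5 groups (x axis), with 1 point per mouse and a bar at the mean of 3 mice. Cdkn2a is at 0 in naïve brain, and every tumor sample of Trp53bp1 lies below the naïve samples.

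A further 29 p53 targets, listed with earlier results of these data known, were read in the same fits. In CT2A 6 were higher and 6 lower than in naïve brain (20.7% each, against 20.3% and 21.7% of all tested genes), and in GL261 4 and 2 (13.8% and 6.9%, against 15.1% and 8.45%). In Mut3 5 were higher and 4 lower (17.2% and 13.8%, against 19.3% and 21%). These shares were near or below those of all genes. In 005 2 were higher and 0 lower by edgeR (against 11.8% and 1.13%), with 2 lower at an unadjusted p under 0.05 and 2 by DESeq2, and 3 were higher and 3 lower without replicate 3 (10.3% each, against 18.6% and 19.3%). Their median log2 fold changes were −0.08, 0.29, 0.04 and 0.32, beside the medians of all genes given above. Gadd45a, a DNA damage response gene, rose in CT2A by 3.05 (SE 0.66, edgeR adjusted p = 0.00361), from 6.32, 5.73 and 6.49 CPM in naïve brain to 45.1, 46.1 and 62.8 CPM. In 005 it rose by 4.20 (SE 0.69, adjusted p = 0.00209), with 193, 138 and, in replicate 3, 12.2 CPM, and by 4.67 without that library (adjusted p = 8.22e-07). Plk2, a polo-like kinase with a role at synapses, fell in CT2A, GL261 and Mut3 by 1.85, 1.76 and 2.69, and Ak1, an adenylate kinase, by 1.37, 1.83 and 2.67 (adjusted p from 4.75e-04 to 0.0196). In 005 neither passed with all libraries, and both passed without replicate 3 (−2.11 and −1.37, adjusted p = 0.00356 and 0.0184). The long noncoding RNA Trp53cor1, which lies next to Cdkn1a, rose in GL261 by 3.12 (SE 0.59, adjusted p = 0.00251). Rps27l rose in all 4 tumor types by 1.84 to 2.65 (in 005 by 2.09 without replicate 3), but its reads can be shared with its closely related paralog Rps27, so its level is uncertain.

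CT2A against the mean of the other tumor types gave 1 of these 29 targets higher (Polk, a translesion polymerase, 1.16, SE 0.34, edgeR adjusted p = 0.0466) and 2 lower, which is 3.45% and 6.9% of them, against 5.5% and 3.34% of all tested genes. The lower ones were Btg2, an antiproliferative gene (−1.38, SE 0.34, adjusted p = 0.0197), and Dcxr, a sugar reductase (−1.65, SE 0.47, adjusted p = 0.0413). Their median there was −0.09. These 3 still passed without 005 replicate 3 (adjusted p = 0.0489, 0.0194 and 0.0472), and Gadd45a was also higher in CT2A than this mean (0.88, adjusted p = 0.0147). Gadd45a was not higher in CT2A than in 005. With all libraries its mean was 51.3 CPM in CT2A, 114 in 005, 13.6 in GL261 and 9.85 in Mut3. Btg2 measured 11.2, 15.4 and 14.98 CPM in CT2A and 105, 85.6 and 56.3 CPM in Mut3, and rose in Mut3 against naïve brain by 1.27 (SE 0.38, adjusted p = 0.0167).

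Relatives of the 10 genes moved in other ways. Cdkn1c, which encodes the p21 relative p57, measured 2.45, 2.99 and 3.52 CPM in naïve brain and 36.2, 23.8 and 18.7 CPM in Mut3, where it rose by 3.14 (SE 0.56, edgeR adjusted p = 9.70e-04). In CT2A it was at 0.621 to 1.59 CPM, −2.61 against the mean of the other tumor types (SE 0.52, adjusted p = 0.00594), or −2.31 (adjusted p = 0.00259) without 005 replicate 3. The BH3-only gene Bcl2l11, which encodes Bim and acts on Bax as Bbc3 does, rose by 2.91 in CT2A, 3.27 in 005 and 1.93 in Mut3 (adjusted p = 0.00107, 0.00186 and 0.00671), and by 3.601 in 005 without replicate 3 (adjusted p = 2.83e-05). Phlda1, a relative of Phlda3, rose in GL261 by 1.85 (SE 0.43, adjusted p = 0.00893), and Sesn3, a relative of Sesn1, fell in CT2A and GL261 by 1.47 and 1.19 (adjusted p = 0.00858 and 0.0364).

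Cell cycle genes that p53 lowers through p21 and the DREAM complex were higher in tumors, the p53 wild type line CT2A included. Whether p53 had a part in this rise was not tested. Called higher were all 16 for CT2A, 15 for GL261, 14 for 005 and 15 for Mut3, where 20.3%, 15.1%, 11.8% and 19.3% of all tested genes were higher, with medians of 4.62, 4.28, 4.13 and 4.59 on the log2 scale, beside medians between −0.08 and 0.11 for all genes. For Ccnb1, the cyclin that drives entry into mitosis, the log2 difference was 5.34 in CT2A (SE 0.69, edgeR adjusted p = 2.47e-04). Without replicate 3, 15 were higher in 005, against 18.6%. CT2A against the mean of the other tumor types had 0 of the 16 genes called by edgeR, against 8.83% of all genes, with 3 at an unadjusted p under 0.05 and 2 by DESeq2 (median 0.43, beside −0.10 for all genes). Without 005 replicate 3 Ccnb1 was higher there (1.18, adjusted p = 0.0115) and Ccnb2 and Cdc20 were lower (−1.22 and −1.24, adjusted p = 0.0296 and 0.00530), against 10.4% of all genes.

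Between genes, the deposited TPM values, which are scaled to a gene length, give only a rough order of levels. The median TPM over the 15 samples was 26.7 for Bax, 14.4 for Cdkn1a, 2.39 for Mdm2, 1.69 for Sesn1, 1.29 for Phlda3, 0.886 for Ccng1, 0.390 for Zmat3, 0.277 for Bbc3, 0.213 for Trp53inp1 and 0.0463 for Eda2r. This order depends on the gene lengths behind the TPM values, which were not given in the sources used here. The count behind 1 TPM was 16.5 times as large for Ccng1 as for Bax, while the longest GENCODE M21 transcripts of these genes, 3512 and 1100 bases, differ 3.19-fold. The same 2 ratios to Bax were 21.7 and 7.09 for Zmat3, and 26.8 and 4.94 for Trp53inp1. Per kilobase of the longest transcript, the median was 36.6 CPM for Bax, 16.2 for Cdkn1a, 8.68 for Mdm2, 6.95 for Ccng1, 5.69 for Sesn1, 2.14 for Phlda3, 1.69 for Zmat3, 1.53 for Trp53inp1, 0.267 for Bbc3 and 0.210 for Eda2r. On both scales Bax, Cdkn1a and Mdm2 led and Eda2r was lowest.

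The genes whose profile over the 15 samples was nearest to that of Cdkn1a, by the root mean square (RMS) difference of log2 CPM centred per gene, were Fkbp7 (0.50), Gm4859 (0.51) and Rpl15-ps3 (0.54), where Cdkn1a itself had an SD of 1.25. For Mdm2 they were Rabepk (0.24), Ctsa (0.25) and AW822252 (0.27), with an SD of 0.53, and among the nearest to Eda2r were Prelid2 (0.83) and Gm43549 (0.90), with an SD of 1.83. None of these 8 genes belongs to the p53 lists used here.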

How the data were processed

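RNA sequencing of naïve brain and of CT2A, GL261, 005 and Mut3 tumors was analysed from 2 deposited tables. The authors aligned reads with STAR 2.4.2a to the GENCODE mouse genome. The submitters' processing notes name mm10, Salmon and DESeq2 1.18.1, and how genes were counted was not given in the sources used here. Expected counts as deposited are estimates, need not be whole and are not normalized between samples. The authors also deposited TPM, scaled to gene length and to 1 total per sample. For 4644 genes above 50 counts throughout, the count to TPM ratio was a gene factor times a sample factor (largest log2 residual 9.61e-10), so the tables are not independent.

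Groups and replicate numbers came from the labels, which name no batch. Of 46679 IDs, 46201 matched GENCODE M21. Rounded counts were tested with edgeR 4.0.16 in R 4.3.3 (filterByExpr with a minimum count of 10, TMM, quasi-likelihood test, 5 group means over all 15 samples), with Benjamini-Hochberg adjustment over the 17481 genes tested in each comparison. A gene was called at an adjusted p under 0.05 with no fold threshold. In the contrast of CT2A with the other tumor types the mean was taken on the log2 scale. SE is the absolute log2 fold change over the square root of F. The steps were tested on simulated data. Each sample was 1 mouse. The highest correlation of log2 CPM between samples was 0.951, so none was a duplicate. The members and lists were chosen with earlier results of these data known. Named genes were the 10 members, p53 regulators, genes altered in the lines, and from other lists the 3 called genes with the largest change in each direction per comparison with naïve brain or of CT2A with the other tumor types, where the higher group had a mean log2 CPM of 2 or more. Some genes that these rules would name are not reported here. Alternatives were library-size scaling, other filters, leaving out mitochondrial genes, DESeq2 1.42.0, limma 3.58.1 on log2(TPM + 1) or log2(TPM + 0.1), a replicate block, fits on the compared samples alone and leaving out each sample. Counts of the other lists without 005 replicate 3 were added after the data were seen. Total counts of 3105119 to 13130158 set the precision, and 3 counts were worth 0.214 to 0.811 CPM.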

Additional observations from a re-analysis of the deposited data

Results flagged for a closer look

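Between tumor types, 9 differences of p53 target genes passed the edgeR test of the difference itself, and all are on the log2 scale with the first group over the second. Eda2r, the ectodysplasin A2 receptor, was higher in CT2A than in GL261 by 3.91 and than in 005 by 3.40. Phlda3, the AKT inhibitor, was higher than in Mut3 by 4.03 in CT2A, by 3.85 in GL261 and by 3.49 in 005, and Mut3 held 6 counts of it over 3 libraries. Mdm2, the ligase that degrades p53, was higher than in Mut3 by 1.31 in GL261 and by 1.05 in 005. In CT2A against Mut3, Sesn1 differed by −2.05 and Trp53inp1 by −1.47. These tumor types are 1 line each, so the alteration of a line that goes with a difference cannot be named from these samples.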

How the results depend on the processing

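The counts of the p53 target genes called were kept within 1.5 times under library-size scaling and under a fold threshold of 1 on the log2 scale. The share of all genes called under the same alternative stands in brackets. DESeq2 called 4 in GL261 (32.6%) and 2 in 005 (21.2%) against naïve brain, 5 in CT2A against Mut3 (20.1%), 4 in GL261 against Mut3 (25.4%) and 4 in CT2A against the mean of the other tumor types (14.2%). Leaving out mitochondrial genes gave 4 in GL261 against naïve brain (22.8%). With no filter, 1 was called in 005 against Mut3 (11.4%) and 1 in CT2A against the other tumor types (5.05%). A filter of 10 counts in every sample, which removes Eda2r and Phlda3, left 2 in Mut3 against naïve brain (44.8%), 0 in CT2A against GL261 (10.4%) and 005 (7.32%), and 1 in GL261 against Mut3 (18.2%), in 005 against Mut3 (20.6%) and in CT2A against the other tumor types (12.2%). With only the compared samples fitted, 0 were called in CT2A against 005 (0.71%) and 1 in 005 against Mut3 (5.88%). By limma on log2(TPM + 1), 2 were called in 005 against naïve brain (30.3%), 1 in 005 against Mut3 (9.65%) and 1 in CT2A against the other tumor types (6.48%), and on log2(TPM + 0.1), 2 in 005 against naïve brain (27.5%), 1 in CT2A against Mut3 (11%) and 1 in CT2A against the other tumor types (7.32%). Same-numbered samples did not pair (correlations of deviations from −0.331 to 0.262), and with the replicate block 1 was called in GL261 against naïve brain (Zmat3, 19.3%) and 0 in CT2A against 005 (2.25%), with no other count changed. Leaving out 1 sample gave 6 to 7 across the groups (41.2% to 59.4%), 2 to 4 in CT2A (25.6% to 44.9%), 0 to 4 in GL261 (10.8% to 33.3%), 0 to 4 in 005 (5.49% to 37.9%) and 4 to 5 in Mut3 (30.6% to 43.2%) against naïve brain. Between tumor types it gave 0 to 1 in CT2A against GL261 (3.26% to 13.1%) and against 005 (0.996% to 4.44%), 1 to 4 in CT2A against Mut3 (7.37% to 19%), 0 in GL261 against 005 (1.04% to 5.93%), 2 to 3 in GL261 against Mut3 (7.84% to 24.8%), 1 to 3 in 005 against Mut3 (9.64% to 20.4%) and 1 to 2 in CT2A against the other tumor types (3.17% to 10.4%). The causes of these moves were not tested, other than the filter.

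No called difference reversed under any alternative run. TPM on a log scale shifted the median of all genes against naïve brain by −0.68, −0.58, −0.48 and −0.62 (CT2A, GL261, 005 and Mut3) at a pseudocount of 1, and under it some uncalled differences changed sign. At pseudocounts of 1 and 0.1 these were, in CT2A, Mdm2 (−0.45 and −0.62), Bax (−0.567 and −0.589) and Trp53inp1 (−0.10 and −0.39), in GL261 Mdm2 (−0.020 and −0.024) and Bax (−0.38 and −0.39), in 005 Mdm2 (−0.057 and −0.072) and Ccng1 (−0.23 and −0.39), in Mut3 Sesn1 (−0.50 and −0.67), and in CT2A against the other tumor types Mdm2 (−0.14 and −0.169, and −0.077 by library size). Phlda3 in CT2A turned to 0.16 without mitochondrial genes, 0.042 with only the compared samples and 0.010 by DESeq2, and Ccng1 in GL261 to 0.12 and 0.11 under the first 2. Leaving out 1 sample moved across 0 the uncalled differences of Phlda3 in CT2A (−0.31 to 0.56) and GL261 (−0.49 to 0.32), Ccng1 in GL261 (−0.24 to 0.39), 005 (−0.18 to 0.53) and Mut3 (−0.41 to 0.23), Sesn1 in Mut3 (−0.44 to 0.65), and Mdm2 (−0.086 to 0.18) and Bax (−0.51 to 0.029) in CT2A against the other tumor types. Depth limits Bbc3, Eda2r in naïve brain and Phlda3 in Mut3, each with few counts.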
